A study of Homo sapiens with 6 samples.

Results

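RUNX1 sites that were called in both conditions were examined. They were chosen by the positions of the called RUNX1 peaks, as peaks of the AI-10-49 list that overlapped a peak of the DMSO list by at least 1 bp. These were 1536 of the 10319 RUNX1 sites of the AI-10-49 list (14.9%), and they stood over 1551 of the 1701 DMSO sites. The peaks came from ME-1 cells, an established human leukemia line carrying inv(16). The cells had spent 6 h in AI-10-49 (1 µM) or in DMSO, its vehicle. Peak lists of 4 libraries were used, namely RUNX1 AI-10-49, RUNX1 DMSO, H3K27ac AI-10-49 and H3K27ac DMSO. Because membership was set by both RUNX1 lists, all RUNX1 values below are descriptions without a test. The H3K27ac lists took no part in choosing the sites.

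RUNX1 is a DNA-binding transcription factor of blood cell development, and CBFβ is the partner that strengthens its hold on DNA. The inversion of chromosome 16 fuses CBFB to MYH11, and the fusion protein CBFβ-SMMHC keeps the RUNX1-binding part of CBFβ. The contact between this fusion protein and RUNX1 is what AI-10-49, a small molecule, was made to block. H3K27ac is the acetylation of lysine 27 on histone H3, a mark of nucleosomes beside active promoters and enhancers. A site bound by a factor is often depleted of nucleosomes, so the mark tends to lie on either side of the bound sequence.

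Every antibody and condition had 1 library, so no difference could be set against a spread between replicates and no p-value is given. Read totals recovered from the lists were 31.5 M (mega) for RUNX1 AI-10-49, 33.8 M for RUNX1 DMSO, 37.0 M for H3K27ac AI-10-49 and 35.7 M for H3K27ac DMSO. The level of a site is the number of fragments over its summit per M reads, with an exact Poisson interval (95%) that covers counting error only. Fragments were 169 bp in RUNX1 AI-10-49 and 149 bp in RUNX1 DMSO, and a longer fragment covers a summit 1.13 times as often. Treatment and differences in the yield of a precipitation cannot be told apart with 1 library each.

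RUNX1 sites called in both conditions were not equal in both. The median level was 2.03 fragments per M reads in AI-10-49 (quartiles 1.301 and 3.17) and 0.918 in DMSO (0.740 and 1.24). The ratio of AI-10-49 to DMSO had a median of 2.08, with quartiles of 1.51 and 2.95 and extremes of 0.413 and 8.25. A ratio of at least 2 was found at 809 sites (52.7%), of at least 3 at 365 sites (23.8%) and of at least 5 at 65 sites (4.23%). These pairs are all that can be compared between the lists, so 52.7% is also the background, and nothing is read from the count. A ratio below 1 was found at 97 sites (6.32%, likewise the background). By counting error, 882 sites (57.4%) had intervals apart with AI-10-49 higher, 652 had intervals that met, and 2 (0.130%) had intervals apart with DMSO higher. These shares are likewise the background. The intervals were not adjusted for the number of sites, and nothing is read from the counts.

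**Figure D1:**
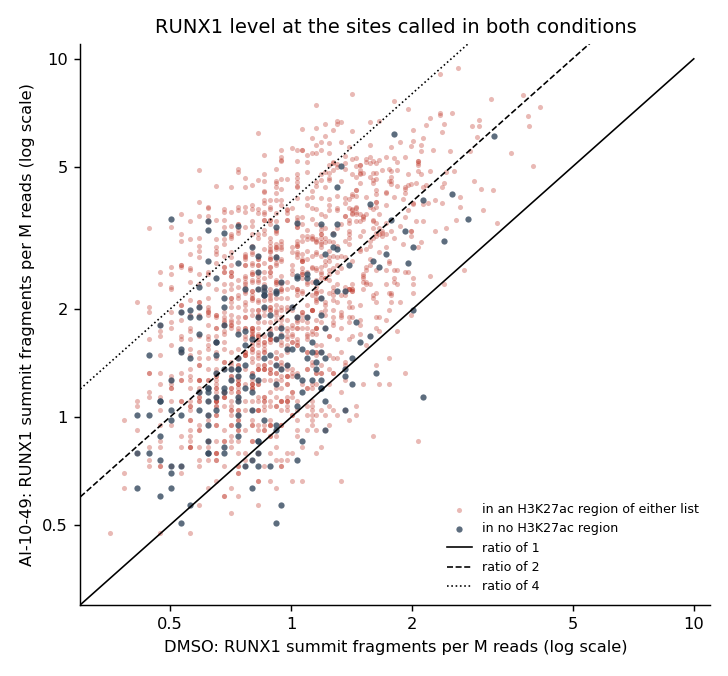
Level of RUNX1 in AI-10-49 (vertical axis) against DMSO (horizontal axis) at the 1536 sites, in summit fragments per M reads on log scales. Each point is 1 site, dark where it overlapped no H3K27ac region, and lines mark ratios of 1, 2 and 4. Most points lie above the line of equal levels, and 97 lie below it.

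The order of the sites was kept in part. Levels in AI-10-49 and DMSO had a rank correlation of 0.516 over the 1536 sites, which share the 2 libraries, and 37 of the 100 highest sites in AI-10-49 were also among the 100 highest in DMSO. When sites were split at the quartiles of DMSO level, the median ratio was 2.37 in the lowest class and 1.98 in the highest. The DMSO count enters both the level and the ratio, so some decline is built into that comparison. Classes split at the quartiles of local background had median ratios of 2.01 at the lowest and 2.16 at the highest AI-10-49 background.

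Among the 1381 sites that paired 1-to-1 and held at least 20 fragments in DMSO, the 10 highest ratios lay between 6.18 and 8.25. The first was chr11:35057361-35057961 (hg19, interval of the AI-10-49 list, as all positions here) in 11p13. It held 154 summit fragments in AI-10-49, or 4.89 per M reads (4.14 to 5.72), against 20 in DMSO, or 0.592 (0.362 to 0.914). The next was chr12:68758610-68759491 in 12q15, with 196 fragments in AI-10-49 and 28 in DMSO, a ratio of 7.502. All 10 sites held 20 to 39 fragments in DMSO, where the median of all sites was 31. The counting intervals of the 2 conditions did not meet at any of them. The sites were ranked on these same counts, so this separation is built in and nothing is read from it.

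The other 8 of this group were spread over 6 chromosomes. Sites in 22q13.1 (chr22:38072765-38073614) and 7p22.2 (chr7:2810839-2811222) had ratios of 6.77 and 6.75. In 6q25.3 (chr6:158447353-158448336) the ratio was 6.64, and the summits of the 2 lists were 329 bp apart. In 22q11.23 (chr22:24830483-24830985) it was 6.52, with 152 fragments in AI-10-49 and 25 in DMSO at summits 140 bp apart. At chr19:54711627-54712591 in 19q13.42 both summits fell on the same base, and the level was 7.42 in AI-10-49 against 1.15 in DMSO. The site chr1:156095921-156096548 in 1q22 had 5.39 in AI-10-49 against 0.859 in DMSO. Sites in 2q37.3 and 6p21.33 closed the group with ratios of 6.23 and 6.18. In 2q37.3 the summits were 278 bp apart. There, in 6q25.3 and in 22q11.23 the AI-10-49 summit lay outside the DMSO interval, so those ratios compare different positions.

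Ranked by difference in level rather than by ratio, mostly other sites came first. At chr8:22562208-22563077 in 8p21.3 the level was 9.45 (8.41 to 10.6) in AI-10-49 against 2.61 (2.09 to 3.21) in DMSO, a difference of 6.85. It was followed by chr14:23025057-23025753 in 14q11.2, the band of the T cell receptor alpha locus, with 9.07 in AI-10-49 against 2.34 in DMSO. The third was chr12:7062567-7063433 in 12p13.31, a band that holds PTPN6, a phosphatase of blood cell signalling, with 7.995 in AI-10-49 against 1.42 in DMSO. A gene named with its band is background only, since no site was assigned to a gene. The sites in 19q13.42 and 12q15 belonged to this group as well as to the 10 highest ratios.

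The 10 largest differences included sites with little and with much acetylation. The site chr6:84152389-84152950 in 6q14.2 had a RUNX1 level of 6.57 in AI-10-49 against 1.21 in DMSO. It overlapped no H3K27ac region of AI-10-49, and the stronger of its 2 DMSO regions was 198 bp wide with 21 summit fragments. At the other end was chr11:67044194-67045397 in 11q13.2, where RUNX1 had 7.27 in AI-10-49 against 1.95 in DMSO inside an H3K27ac region 22721 bp wide in AI-10-49 and 26096 bp wide in DMSO.

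Among the same 1381 sites the lowest ratio was 0.413, at chr1:35734224-35734540 in 1p34.3. There 27 fragments were counted in AI-10-49, or 0.857 per M reads (0.565 to 1.25), against 70 in DMSO, or 2.07 (1.62 to 2.62). It and chr8:1094723-1095032 in 8p23.3, with 36 fragments in AI-10-49 and 72 in DMSO, were the 2 sites with intervals apart and DMSO higher. In 8p23.3 the intervals were only just apart, with bounds of 1.58 in AI-10-49 and 1.67 in DMSO. No allowance was made for the 1536 sites compared. The 1p34.3 site lay in an acetylated region with 3.35 H3K27ac fragments per M reads in AI-10-49 and 6.56 in DMSO, whereas the 8p23.3 site overlapped no H3K27ac region.

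At the other 8 of the 10 lowest ratios among these pairs (0.553 to 0.691) the counting intervals of both conditions met. These were in 17p11.2, 12q24.11, 19p13.11, 19p13.3, 19q13.12, 20p13, 14q32.31 and 9q34.3. The 12q24.11 site, chr12:109490237-109490415, had 28 fragments in AI-10-49 and 54 in DMSO. The 10 low-ratio sites held 16 to 36 fragments in AI-10-49 and 28 to 72 in DMSO, which leaves wide counting intervals.

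**Figure D2:**
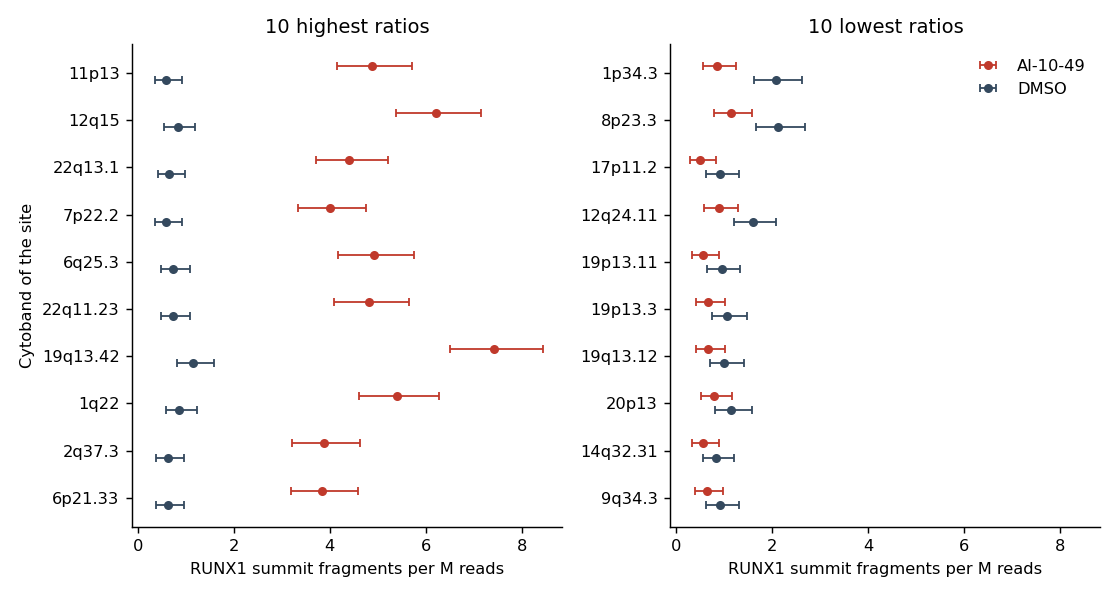
RUNX1 summit fragments per M reads at the sites with the 10 highest (left) and 10 lowest ratios (right) among the 1381 that paired 1-to-1 with at least 20 DMSO fragments, by cytoband, AI-10-49 above DMSO in each pair; bars are exact Poisson intervals (95%, counting error only). On the left the AI-10-49 levels lie between 3.84 and 7.42 and no pair of bars meets. On the right the bars of 8 of the 10 pairs meet. The sites were ranked on these same counts, so the gaps between bars are in part built in.

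Peaks were wider in AI-10-49, and their centres lay close, which the overlap rule in part imposes. The median width was 415 bp in AI-10-49 (quartiles 306 and 573) and 210 bp in DMSO, and 1458 sites (94.9%) were wider in AI-10-49, 77 were narrower and 1 was equal. The median ratio of widths was 1.87, and 667 sites (43.4%) were at least 2 times as wide. At 1250 sites (81.4%) the AI-10-49 interval held the whole DMSO interval, and at 22 sites the DMSO interval held the AI-10-49 one. Ratios of width and of level went together, with a rank correlation of 0.577 over the same sites and libraries.

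Width also differed at equal fragment numbers. Sites with 40 to 59 fragments had a median width of 342 bp in AI-10-49 (n = 343) and 253 bp in DMSO (n = 331). For 20 to 29 fragments the medians were 233.5 bp in AI-10-49 (n = 124) and 186 bp in DMSO (n = 522), and for 60 to 99 fragments 459 bp in AI-10-49 (n = 455) and 324.5 bp in DMSO (n = 114). Fragment length and background, which also bear on the width a caller reports, differed between the lists, and their part was not tested. The median background under the summit was 4.57 fragments in AI-10-49 and 5.33 in DMSO, each on the scale of its own RUNX1 library.

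Summits of the 2 lists were a median of 29 bp apart (quartiles 13 and 54). They lay within 10 bp of each other at 318 sites (20.7%), within 50 bp at 1104 (71.9%) and within 250 bp at 1499 (97.6%). The AI-10-49 summit fell inside the DMSO interval at 1434 sites (93.4%). Membership required overlapping intervals, so sites with distant summits could hardly enter, and this closeness is in part built in. Classes split at the quartiles of the ratio had median summit distances of 26.5 to 32 bp, close to each other at large and small ratios.

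**Figure D3:**
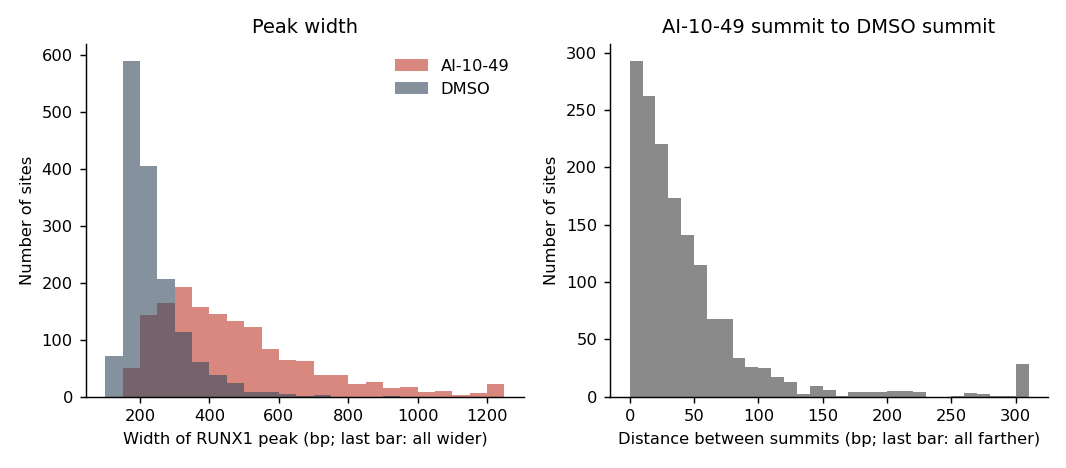
Left, number of sites by width of the RUNX1 peak in AI-10-49 and DMSO (bp, bars of 50 bp). Right, number of sites by distance between the AI-10-49 and DMSO summits (bp, bars of 10 bp). The median widths are 415 bp in AI-10-49 and 210 bp in DMSO, and the median distance is 29 bp.

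Widening was greatest at chr8:61821456-61823164 in 8q12.2, which was 1709 bp wide in AI-10-49 against 194 bp in DMSO and covered 2 DMSO sites. In 8q22.3 (chr8:103250829-103252154) the widths were 1326 bp in AI-10-49 and 154 bp in DMSO, at a ratio of level of only 2.22. The widest of all was chr9:135878117-135880173 in 9q34.13, with 2057 bp in AI-10-49. It also covered 2 DMSO sites, of which the stronger was 302 bp wide. Summits moved farthest at chr22:50628571-50630226 in 22q13.33, by 1109 bp within a peak of 1656 bp, and at chr7:2568748-2570492 in 7p22.3, by 614 bp. The smallest ratio of widths, 0.363, belonged to chr7:2561624-2561795 in 7p22.3, with 172 bp in AI-10-49 against 474 bp in DMSO. It was followed by chr19:17007878-17008050 in 19p13.11, which was 173 bp wide in AI-10-49 against 431 bp in DMSO, at a level of 0.571 in AI-10-49 against 0.947 in DMSO.

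Pairing was nearly always simple. Of the 1536 sites 1515 paired 1-to-1, 17 covered 2 DMSO sites, and 2 DMSO sites were each overlapped by 2 AI-10-49 sites. The strongest site over 2 DMSO sites was chr20:31260242-31261658 in 20q11.21, which had 7.36 fragments per M reads in AI-10-49 against 4.14 in the stronger DMSO site, the highest DMSO level of the set. The fewest shared bases were 26, 47 and 61, at chr7:2561624-2561795, chr9:139923785-139923983 and chr4:185747552-185747744. The first of these was a side peak with 21 fragments beside chr7:2561870-2562355, which overlapped the same DMSO site and had 62, and its ratio of level was 0.5001. Just outside the set, AI-10-49 sites in 19p13.2, 5q31.2 and Xp11.4 stopped 39, 48 and 66 bp short of a DMSO site and held 39, 33 and 22 fragments.

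Sites called in both conditions gathered at the top of the AI-10-49 list. In the first decile of that list by −log10 q, 605 of 1032 sites (58.6%) also had a DMSO site. The share was 28.5% in the second decile, 9.50% in the fifth and 2.42% in the last. The first decile thus still held 427 sites of AI-10-49 only. Peaks high in the list were also wider, which makes an overlap easier. Sites called in both conditions had a median width of 559 bp in the first decile and 198 bp in the last. By chromosome the share ran between 10.1% on chromosome 12 (55 of 544 sites) and 22.7% on chromosome 22 (56 of 247), and the single AI-10-49 site on chromosome Y had no DMSO partner. The median ratio of level was lowest on chromosome 22, at 1.85, and highest on X, at 2.66.

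Most of these sites lay in acetylated chromatin, but fewer than among sites of AI-10-49 only. Of the 1536 sites, 1229 (80.0%, exact Clopper-Pearson interval 77.9 to 82.0) overlapped an H3K27ac region of AI-10-49 and 1323 (86.1%, 84.3 to 87.8) one of DMSO. For the 8783 sites of AI-10-49 only the shares were 87.1% (86.4 to 87.8) for AI-10-49 regions and 90.5% (89.8 to 91.1) for DMSO regions. The intervals of the 2 groups of sites did not meet for either list, although sites called in both conditions were wider (median 415 bp against 273 bp), which makes an overlap easier. The 150 sites of DMSO only overlapped H3K27ac less often still, with 54.7% in AI-10-49 regions and 70.0% in DMSO regions. Intervals on shares cover the sampling of sites only.

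The share with H3K27ac was also lower at equal rank. In the first decile of the AI-10-49 list, 88.4% (85.6 to 90.9) of sites called in both conditions overlapped an H3K27ac region of AI-10-49, against 96.3% (94.0 to 97.8) of sites of AI-10-49 only. In the third decile the shares were 72.0% (64.6 to 78.7) against 91.0% (88.9 to 92.8), with median widths of 372 bp and 358 bp. The share of sites called in both conditions was the lower one in each of the 10 deciles and for both H3K27ac lists. The intervals of the 2 kinds of site were apart in 6 deciles for the AI-10-49 list and in 3 for the DMSO list. In the first decile of the DMSO comparison they met, with 91.9% (89.4 to 93.9) against 96.0% (93.7 to 97.7).

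In combination, 1213 sites (79.0%) overlapped an H3K27ac region in both lists, 110 (7.16%) in DMSO only, 16 (1.04%) in AI-10-49 only and 197 (12.8%) in neither. Among sites of AI-10-49 only, 7.88% (7.32 to 8.46) overlapped none, against 12.8% (11.2 to 14.6) here. Of the 197 sites outside all regions, 28 were within 1000 bp of one, and the median distance was 30673 bp to a region of AI-10-49 and 27610 bp to one of DMSO.

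With classes set by the AI-10-49 interval, RUNX1 ratios were higher where H3K27ac was called in both lists than in the other 3 classes. Where H3K27ac was called in both lists the median ratio was 2.22 (quartiles 1.58 and 3.10), with levels of 2.22 in AI-10-49 and 0.947 in DMSO. Where it was called in neither list the median ratio was 1.78 (1.29 and 2.39), with levels of 1.49 in AI-10-49 and 0.829 in DMSO. A ratio of at least 2 was reached by 56.6% of the first class and by 37.6% of the second, around the 52.7% of all sites. Sites with H3K27ac in 1 list had median ratios of 1.70 (AI-10-49 only, n = 16) and 1.72 (DMSO only, n = 110), no higher than sites without it. Between sites with H3K27ac in both lists and in neither, the medians also differed in each of the 4 quartile classes of DMSO level, at 2.52 against 1.98 in the lowest and 2.14 against 1.66 in the highest. Quartile ranges overlapped in all 4 classes, and the difference was not tested, because membership rests on the same RUNX1 lists. These classes are set in part by the width of the AI-10-49 peak, which went with the ratio (medians of 457 bp with H3K27ac in both lists and 308 bp in neither). With the class set by the DMSO interval instead, the medians were closer, at 2.19 for both lists (n = 1133) and 1.89 for neither (n = 239). A ratio of at least 2 was then reached by 55.6% and 44.4%. The 25 sites with H3K27ac in AI-10-49 only then had a median of 2.26, above the 2.19 for both lists. Background under the summit differed too, with medians of 4.57 and 3.43 fragments in AI-10-49 for the acetylated and the other sites, and its part was not tested.

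Strong RUNX1 sites without H3K27ac were found all the same. The foremost was chr3:15313211-15313783 in 3p25.1, with 6.16 fragments per M reads in AI-10-49 against 1.81 in DMSO. At chr11:76337889-76338333 in 11q13.5 the level was 6.09 in AI-10-49 against 3.20 in DMSO, one of the higher DMSO levels. The next sites were chr1:205257209-205257708 in 1q32.1 (5.01 in AI-10-49 against 1.33 in DMSO), chr16:58459867-58460467 in 16q21 (4.38 in AI-10-49 against 1.303 in DMSO) and chr18:56554740-56555212 in 18q21.32 (4.19 in AI-10-49 against 2.52 in DMSO). Summits at these 5 sites were 3 to 24 bp apart between the conditions.

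RUNX1 summits stood beside, not on, the H3K27ac summits. The nearest H3K27ac summit of an overlapping region was a median of 296 bp away in AI-10-49 (quartiles 223 and 397, n = 1229) and 289 bp in DMSO (224 and 396, n = 1323). It lay 150 to 500 bp away at 74.0% of sites in AI-10-49 and 75.6% in DMSO, and within 150 bp at 9.52% in AI-10-49 and 7.48% in DMSO. Sites of AI-10-49 only had medians of 301 bp in AI-10-49 and 284 bp in DMSO, against 296 bp and 289 bp here. In the DMSO list an H3K27ac summit within 150 bp was found at 7.48% (6.12 to 9.04) of sites called in both conditions, against 11.2% (10.6 to 11.9) of sites of AI-10-49 only. In the AI-10-49 list the intervals met, with 9.52% (7.94 to 11.3) against 10.7% (10.1 to 11.5). These shares rest on AI-10-49 intervals and summits, and those intervals were wider at sites called in both conditions. With the DMSO intervals and summits of the same sites, the share was 10.6% (9.01 to 12.5) in the DMSO list. It was then 12.8% (10.9 to 14.8) in the AI-10-49 list, and the intervals met those of sites of AI-10-49 only in both lists.

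**Figure D4:**
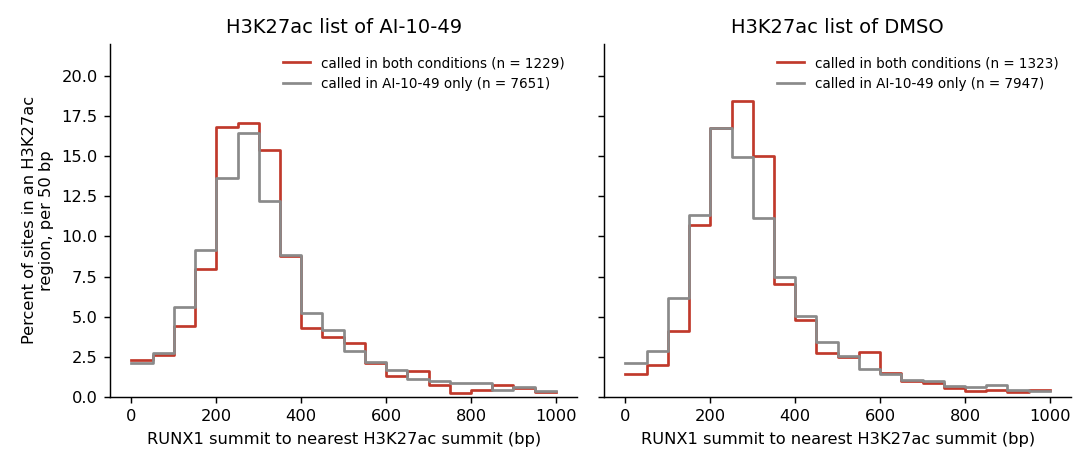
Distance of the RUNX1 summit (AI-10-49 list) to the nearest H3K27ac summit of an overlapping region (bp), as percent of sites per 50 bp, for the H3K27ac list of AI-10-49 (left) and of DMSO (right). Lines are sites called in both conditions and sites of AI-10-49 only, and all peak between 200 and 300 bp with few sites near 0.

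Many RUNX1 summits fell outside the acetylated regions. The AI-10-49 RUNX1 summit was inside an H3K27ac region at 908 sites (59.1%, 56.6 to 61.6) for the AI-10-49 list and at 1046 (68.1%, 65.7 to 70.4) for the DMSO list. At 198 sites (12.9%) it was inside a region in DMSO and outside in AI-10-49, and at 60 sites (3.91%) the reverse. A RUNX1 peak touched 2 or more H3K27ac regions at 236 sites (15.4%) in AI-10-49 and 225 (14.6%) in DMSO, which for sites of AI-10-49 only was 10.9% and 9.18%. Wider RUNX1 peaks touch more regions, and the DMSO intervals of the same sites did so at 5.35% in AI-10-49 and 6.19% in DMSO.

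H3K27ac at these sites was lower in AI-10-49 than in DMSO. Over the 1213 sites with a region in both lists, the strongest overlapping region held a median ratio of 0.651 (quartiles 0.528 and 0.781), and the ratio was below 1 at 94.1%. At sites of AI-10-49 only the median was 0.702 and the share below 1 was 88.5%, so a lower H3K27ac level was common to both kinds of site. Fragments were 210 bp in H3K27ac AI-10-49 and 192 bp in H3K27ac DMSO. Of the 1376 paired DMSO regions that held such a RUNX1 site, 690 (50.1%) had a ratio of at most 1 over 1.5, against 29.1% of all 47607 paired regions. A ratio of at least 1.5 was found in 25 (1.82%), against 12.8% of all paired regions. Over regions paired 1-to-1 these shares were 0.734% (6 of 817) and 5.72%. Regions that held a site of AI-10-49 only had a median ratio of 0.713, and 41.0% had a ratio of at most 1 over 1.5. Regions with RUNX1 sites of either kind were stronger than those with none. Over 1-to-1 pairs the median DMSO levels were 3.08 (called in both conditions), 3.47 (AI-10-49 only) and 0.953 (no RUNX1 site), so level was held equal next.

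At equal H3K27ac level the differences were smaller in strong regions than in weak ones. Among 1-to-1 paired regions with a mean of 2 to 4 fragments per M reads, the median ratio was 0.611 (quartiles 0.505 and 0.713, n = 242) in regions with a RUNX1 site called in both conditions. It was 0.662 (0.547 and 0.809, n = 1363) with a site of AI-10-49 only and 0.634 (0.522 and 0.774, n = 3463) with no RUNX1 site of AI-10-49. In regions of 4 or more fragments the medians were 0.688, 0.736 and 0.726, and in regions of 1 to 2 they were 0.628, 0.708 and 0.697. In the weakest regions compared, of 0.5 to 1, the medians were 0.804 (n = 108), 0.860 (n = 496) and 0.965 (n = 11529), and 31.5%, 27.6% and 15.5% had a ratio of at most 1 over 1.5. The class with sites called in both conditions was the lowest of the 3 in all 4 level classes compared, while the quartile ranges overlapped in each. A ratio of at least 1.5 was found in 4.63%, 0.457%, 0% and 0% of regions with such a site, weakest to strongest level class. Over all 1-to-1 pairs of the same level classes it was found in 9.78%, 3.89%, 0.533% and 0.186%.

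**Figure D5:**
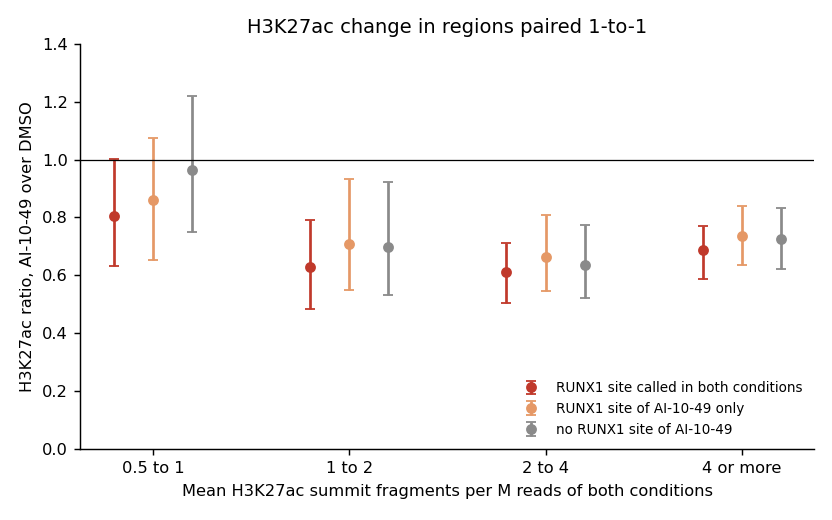
Ratio of H3K27ac summit fragments per M reads, AI-10-49 over DMSO, in 1-to-1 paired regions by mean level (horizontal axis) and by RUNX1 content; points are medians and bars the quartiles over regions, not errors. Regions with a RUNX1 site called in both conditions have medians of 0.804, 0.628, 0.611 and 0.688, the lowest in each class.

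The change in H3K27ac went with the change in RUNX1 only weakly. The rank correlation of the 2 ratios was 0.127 over 1213 sites, and the quartile classes of RUNX1 ratio had median H3K27ac ratios of 0.633, 0.636, 0.635 and 0.687, lowest to highest. Regions paired 1-to-1 at 554 sites were 0.931 times as wide in AI-10-49 (median), against 0.948 times for all 29671 such regions.

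Over the 1213 sites the H3K27ac ratio ran between 0.116 and 5.74, and sites are named from the 545 whose regions paired 1-to-1 with at least 20 fragments in both lists. Among the 5 with the lowest ratios RUNX1 was higher in AI-10-49 at 4 and about equal at 1. Of all 1536 sites, 97 (6.32%) had a RUNX1 ratio below 1, so nothing is read from this count. In 16q24.1, the band of IRF8, a regulator of monocyte development, 2 such sites stood near each other. At chr16:85411194-85411803 the H3K27ac summit held 24 fragments in AI-10-49 and 125 in DMSO, a ratio of 0.185, while RUNX1 had 28 in AI-10-49 and 19 in DMSO, with counting intervals that met. At chr16:85415476-85415968 H3K27ac had 29 in AI-10-49 and 109 in DMSO, a ratio of 0.257, and the RUNX1 ratio was 2.47.

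The other 3 sites of this group lay on chromosomes 11 and 8. At chr11:118187273-118187683 in 11q23.3 H3K27ac held 1.298 fragments per M reads in AI-10-49 against 5.44 in DMSO, and RUNX1 3.97 in AI-10-49 against 2.19 in DMSO. At chr11:1910373-1910781 in 11p15.5 the H3K27ac ratio was 0.275 and the RUNX1 ratio 0.979, with both RUNX1 summits on the same base. At chr8:50219902-50220175 in 8q11.21 the ratios were 0.277 for H3K27ac and 2.30 for RUNX1.

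Higher H3K27ac was rare. The highest ratio among the 545 sites was 2.34, at chr10:72865945-72866283 in 10q22.1, where H3K27ac had 51 fragments in AI-10-49 and 21 in DMSO. The next was 1.42, at chr14:75741508-75741876 in 14q24.3, the band of the immediate early gene FOS. There H3K27ac had 78 fragments in AI-10-49 and 53 in DMSO, or 2.11 per M reads against 1.49. RUNX1 had 2.76 per M reads in AI-10-49 against 0.829 in DMSO. Sites in 14q23.1, 1q23.3 and 7q21.3 followed, with H3K27ac ratios of 1.37, 1.35 and 1.34. They held 74, 49 and 39 H3K27ac fragments in AI-10-49 against 52, 35 and 28 in DMSO. The ratio of H3K27ac fragment lengths was 1.09. No counting intervals were set for H3K27ac, so whether these ratios exceed counting error was not tested.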

How the data were processed

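Chromatin immunoprecipitation libraries of ME-1 cells were made by the authors with antibodies against RUNX1 and H3K27ac. MACS2 2.1.0, Bowtie2 2.1.0, Picard 1.96, SAMtools 1.3, CASAVA 1.4 and the build hg19 are listed, without roles, in the submitters' processing notes, and peaks were deposited per sample. Which control entered a call was not given in the sources used here. Of 6 libraries, 4 had a peak list, and the 2 inputs were not used directly. The deposited ratio per peak is the authors' fold enrichment over background at the summit. Each peak's deposited −log10 p and its −log10 q are the authors' as well, and the deposited score was not used. The deposited summit position was taken as given.

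Summit fragments were recovered as the whole numbers that reproduce each peak's fold enrichment and −log10 p, after the factor scaling ChIP to input had been searched. This solved 100% of peaks in every list to within 0.003 (medians of 1.33% to 2.00% at other factors), and was exact for 100% of simulated peaks in each of the 4 libraries. The simulated peaks used the same formulas with the recovered backgrounds and factor. They therefore show only that the formulas can be inverted, and they do not test the formulas or the read totals. Read totals assume a genome of 2700000000 bp and take the shortest peak as the fragment length. Where several peaks overlapped, the one with most fragments was used. Median ratios and counts of sites had no test, since each group had 1 library.

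Sites were named by ranks of ratio, difference, width, summit distance and H3K27ac. The members and these rules were chosen with earlier results of these data known. Cytobands came from circlize 0.4.16 (hg19). The available gene table had coordinates of a different build, so genes, annotation and sequence under the sites were not analysed here. Alternatives covered overlap, threshold, unit and pairing. Python 3.11.15, numpy 2.4.6, pandas 2.3.3, scipy 1.17.1 and matplotlib 3.10.9 were used.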

Additional observations from a re-analysis of the deposited data

How the results depend on the processing

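Among 46 alternatives none changed direction, 16 moved a value and 30 left it close. Close meant inside the interval for shares, and within 1.5 times for counts, ratios and distances. Site numbers, summit distances and most shares have no direction to reverse, so the lack of reversals says nothing about them. The number of sites (1536) was 842 with at least 50% of both intervals shared, which drops sites widened in AI-10-49 by construction, and 762 at a −log10 q of at least 10 in both lists. The share with a RUNX1 ratio of at least 2 (52.7%) was 34.6% with 50% of both intervals shared, 44.4% after division by the ratio of fragment lengths and 59.96% after subtraction of background. The share with an H3K27ac ratio of at most 1 over 1.5 (53.1%) was 37.4% by the authors' deposited fold enrichment and 66.7% after division by the ratio of fragment lengths. Overlap with AI-10-49 H3K27ac regions (80.0%) was 59.1% for summits inside, 82.8% within 1 kb, and 77.5% and 69.3% when H3K27ac regions had to reach a −log10 q of 5 and 10. With DMSO regions (86.1%) it was 68.1% for summits inside, 88.3% within 1 kb and 80.5% at 10. The first decile of the AI-10-49 list, chosen after seeing the data, gave 88.4% and 91.9%. Among medians counted as close, the RUNX1 ratio (2.08) was 1.71 with 50% of both intervals shared and 2.30 after subtraction of background. The H3K27ac ratio (0.651) was 0.774 by the authors' deposited fold enrichment and 0.595 after division by the ratio of fragment lengths. Except where stated, the cause was not tested. The classes of equal level, rank, DMSO level and DMSO interval were also chosen after seeing the data. The RUNX motif and its 3 alternatives were not run for lack of an hg19 sequence. No paired analysis was possible because only 1 library stood for each condition.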

Other observations

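The sites called in both conditions lay in 480 cytobands, and all sites of the AI-10-49 list in 748. Another site called in both conditions lay within 2000 bp of 66 sites (4.30%) and within 100000 bp of 600 (39.1%). No random or matched placement was compared, so neither scatter nor grouping is read from these values. H3K27ac regions of DMSO that held such a site numbered 1511, of which 1477 held 1, 31 held 2 and 3 held 3. The band with most of them was 8q24.3, with 21 of its 83 AI-10-49 sites and a median RUNX1 ratio of 1.72. Bands with similar numbers differed in their ratios. In 1q32.1 the median ratio over 16 sites was 3.18 (1.19 to 5.24), whereas in 7p22.3 it was 1.42 over 17 sites (0.5001 to 4.06) and in 11q13.2 it was 1.49 over 16 sites (0.746 to 3.72). These ranges overlap, the bands were picked after their values were seen, and the difference was not tested.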
